A study of Mus musculus with 8 samples.

Results

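Genes of the interferon response and of cytosolic nucleic acid sensing were followed in alveolar macrophages, the resident macrophages of the lung's air spaces, with and without the mitochondrial transcription factor Tfam. The genes were given as a list of names by role: of 54 names, 50 matched a row of the deposited expression table, which lists 12367 genes. Mb21d1 is listed under its newer symbol Cgas. Ifi44, Oasl1, Usp18 and the name Eif2ak2x are not analysed here, and Eif2ak2 itself is treated with the related genes below. The 50 genes were grouped by role into 10 sensors and adaptors, 3 enzymes that remove or edit nucleic acids, 4 interferon receptor chains, 5 STAT and IRF factors, 21 effectors and 7 interferon-inducible GTPases. Genes were tested if 4 or more of the 8 libraries reached a value of 1, which 49 of the 50 did and Oas2 did not.

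The comparison was between untreated mice of 3 weeks carrying Tfam-fl/fl (called WT) and mice with the genotype CD11c-Cre Tfam-fl/fl (called KO). Both groups carried the floxed Tfam alleles, and the groups differed by the Cre, which the CD11c promoter drives in CD11c-expressing cells. No group had the Cre without floxed Tfam, so an effect of the Cre and an effect of the deletion cannot be told apart. Each group had 4 libraries of polyadenylated RNA, each from pooled cells of 3 to 5 mice of either or both sexes, sorted as CD45+ F4/80+ CD11c+ cells. The question was whether loss of Tfam raises or lowers interferon genes in cells that received no stimulus, by class of gene.

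Cytosolic DNA is bound by cGAS, whose product activates STING, and cytosolic RNA is bound by the helicases RIG-I (Ddx58) and MDA5 (Ifih1), which signal through MAVS on the outer mitochondrial membrane. Both routes activate the kinase TBK1 and the factor IRF3, and type I interferon follows. Type I interferon bound to its receptor drives a complex that holds STAT2 and IRF9 to the interferon-stimulated response element (ISRE) of target genes, while interferon gamma acts mainly at the GAS element. Low tonic signalling of this kind keeps these genes at a basal level in resting cells. Tfam coats mitochondrial DNA, and mitochondrial DNA that reaches the cytosol is a known ligand of cGAS.

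Promoter windows of 7 of the genes, each from 140 bases to 1 base before the transcript start, are shown because these genes share an ISRE core and differed in their calls. They come from RefSeq (GRCm38.p6) and are written 5′ to 3′ on the strand of the gene. Capitals mark the ISRE core, searched as GAAA, any 2 bases and GAAA, which reads TTTC, any 2 bases and TTTC on the other strand.
Ifit1 (chr19:34640749-34640888, plus strand): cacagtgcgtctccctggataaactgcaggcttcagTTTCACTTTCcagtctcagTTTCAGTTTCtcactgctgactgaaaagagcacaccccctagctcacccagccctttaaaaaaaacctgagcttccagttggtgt
Isg15 (chr4:156200819-156200958, minus strand): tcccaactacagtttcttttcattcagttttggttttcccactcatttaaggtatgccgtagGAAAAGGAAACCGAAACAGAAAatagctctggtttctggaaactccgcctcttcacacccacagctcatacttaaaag
Rsad2 (chr12:26456453-26456592, minus strand): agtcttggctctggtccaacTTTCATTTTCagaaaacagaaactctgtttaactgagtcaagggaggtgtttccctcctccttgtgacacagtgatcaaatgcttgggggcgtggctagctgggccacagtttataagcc
Bst2 (chr8:71537473-71537612, minus strand): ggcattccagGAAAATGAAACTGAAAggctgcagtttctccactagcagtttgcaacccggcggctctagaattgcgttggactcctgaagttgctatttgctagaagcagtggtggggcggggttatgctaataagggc
Trim30a (chr7:104465194-104465333, minus strand): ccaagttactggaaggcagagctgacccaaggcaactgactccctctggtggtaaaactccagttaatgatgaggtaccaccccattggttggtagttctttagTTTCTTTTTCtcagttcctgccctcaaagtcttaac
Gbp2 (chr3:142620523-142620662, plus strand): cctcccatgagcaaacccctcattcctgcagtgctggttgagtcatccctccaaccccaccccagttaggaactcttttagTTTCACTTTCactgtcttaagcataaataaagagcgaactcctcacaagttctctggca
Gbp7 (chr3:142530196-142530335, plus strand): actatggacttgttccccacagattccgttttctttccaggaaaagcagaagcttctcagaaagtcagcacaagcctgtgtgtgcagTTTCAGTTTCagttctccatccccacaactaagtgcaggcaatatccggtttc

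Ifit1, Isg15 and Rsad2, the first of these, did not pass the test, Bst2 was higher in KO, and Trim30a, Gbp2 and Gbp7 were lower. Ifit1 holds 2 separate cores, which begin 104 and 85 bases before the start. Isg15 holds 3 overlapping cores at 78, 72 and 66 bases, and Bst2 holds 2 overlapping cores at 130 and 124 bases. The single core in the window lay 120 bases before the start in Rsad2, 59 in Gbp2, 53 in Gbp7 and 36 in Trim30a. For Gbp2 the RefSeq start lies downstream of the GENCODE start given below, so that its core falls inside the gene as GENCODE places it. RefSeq gave a promoter, from 250 bases before to 50 bases after the start, for 42 of the 50 genes. The ISRE core was in the promoter of 19 of these 42 genes (45.2%), against 3.99% of the 27025 genes in the whole promoter table. It was found for 5 of the 12 matched genes that were lower in KO, for 1 of the 3 that were higher and for 13 of the 27 that did not pass the test. The GAS core, searched as TTCNNNGAA, which reads the same on the other strand, was found for 13 of the 42 genes (31.0%), against 9.55% of all genes. It was present for 5 of 12 lower genes, 2 of 3 higher genes and 6 of 27 others. A match describes the letters in the window and not a site that is bound.

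Values are on the deposited scale, normalised to library size, where a value of 1 stood for 19.7 to 30.0 reads, depending on the library. The listed genes held 24776683 to 29161957 reads in the WT libraries and 20243772 to 30263201 in the KO libraries. The floor set by 3 reads was 0.1 to 0.152 and takes in counting error alone. Fold changes are on the scale log2(value + 1), which understates the change of low genes, and are given as KO minus WT with the adjusted p of limma's test over 12163 genes. Where 4 values are listed, they are replicates 1 to 4 in order. Tfam had values of 26.1, 35.2, 30.3 and 29.7 in WT and 4.52, 5.08, 4.29 and 3.52 in KO, so that it was low in all KO pools (log2 fold change -2.55, standard error 0.117, limma adjusted p = 1.02e-06). Of 15 alveolar macrophage markers, 14 were listed, with summed values of 38990 to 39868 in WT and 40926 to 46653 in KO. These sums consist mostly of Chil3, which was not called (means 23528 and 27808). Of the 14, 4 were called higher and 4 lower, with log2 fold changes from -2.81 for Ear1 to 1.60 for Ctsk. Siglecf was among the lower (means 501 in WT and 194 in KO). Itgax, which encodes CD11c, was among the higher (means 1094 in WT and 2050 in KO). Of 10 interstitial macrophage markers 9 were listed, 5 of them were called higher. C1qa, C1qb, C1qc and Cx3cr1 among these had log2 fold changes of 1.57, 1.68, 1.64 and 1.05 and no overlap between groups, with means of 2.68 to 7.06 in WT and 8.19 to 26.2 in KO. The sums over the 9 were 132 to 330 in WT and 121 to 467 in KO and consist mostly of Cd14, which was not called (means 191 and 172). The part of such cells in the results below was not tested. Of 14 lymphocyte and NK cell markers 1 was listed, at 0.769 to 1.47 in WT and 0.436 to 1.14 in KO. Of 10 plasmacytoid dendritic cell markers 4 were listed, Siglech not among them. Cox6a2 was called higher (means 0.168 in WT and 25.5 in KO), Runx2 lower (80.4 and 65.8), and the other 2 were not called. In sorted bulk cells, fewer cells of a type and less RNA per cell cannot be told apart.

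Loss of Tfam went with more falls than rises among the interferon and sensing genes, but most did not pass the test. Lower values in KO were called for 15 of the 49 tested genes (30.6%), where 20.0% of all tested genes were called lower. Higher values were called for 3 (6.12%), where 18.7% of all tested genes were called higher. In either direction the share called was 36.7% and so close to the 38.7% of all genes. The median log2 fold change was -0.13 over these genes and -0.01 over all genes, and single values ran from -0.97 for Ifi203 to 0.67 for Bst2. Below zero were 39 of 49 fold changes, beside 6182 of 12163 over all tested genes. With every library scaled to the same column sum, a choice made after seeing the data, 18 were lower and 3 higher, and over all genes 3481 were lower and 1708 higher, against 2429 and 2279 in the values as deposited. That scaling moved the median of all genes to -0.09.

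**Figure D1:**
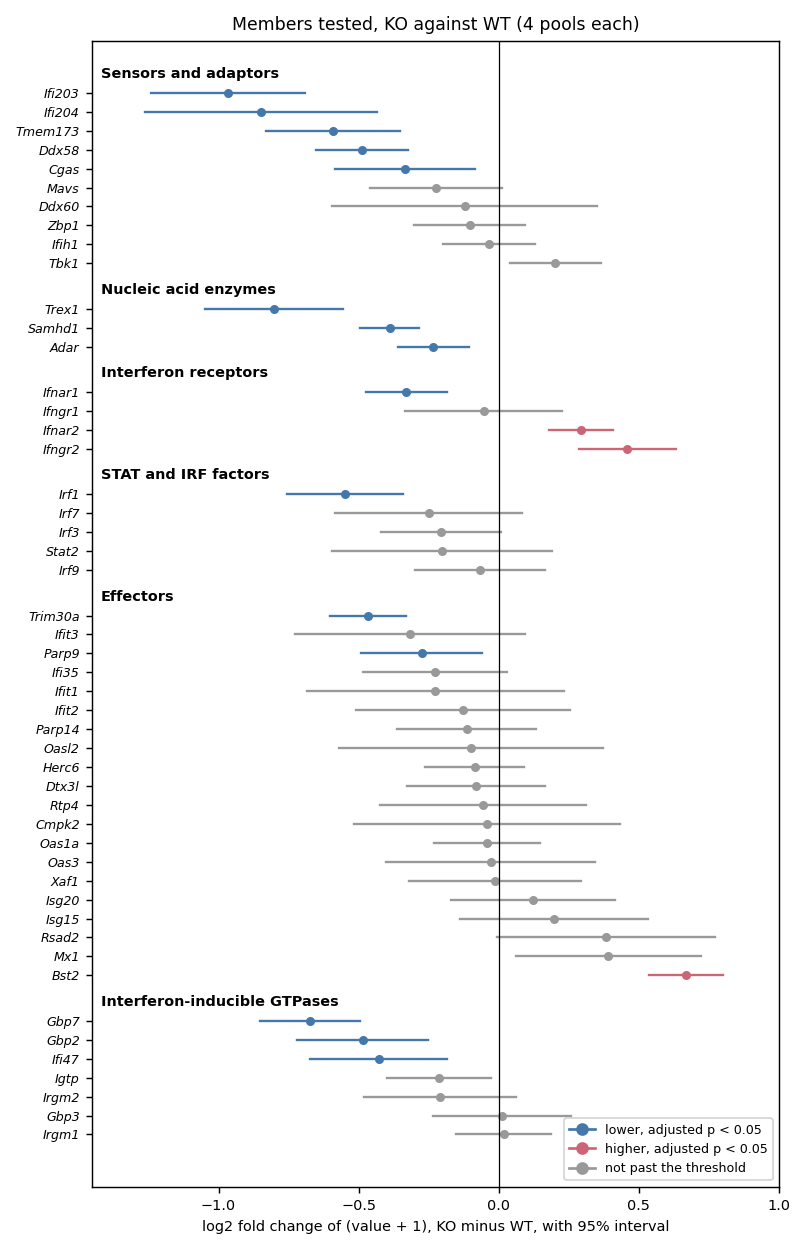
Log2 fold change of value + 1, KO minus WT, for the 49 tested genes by role, with 95% intervals from limma over 4 pools each. Blue marks genes called lower, red those called higher and grey the rest, and 15 are blue and 3 red.

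The sensors and adaptors were lower or not called. Of 10 tested, 5 were called lower (Ifi203, Ifi204, Tmem173, Ddx58 and Cgas) and 0 higher, beside 20.0% lower and 18.7% higher of all genes. The class median on the log2 scale was -0.28, and 1 of the 5 calls, that of Cgas, was lost without any 1 of 5 pools.

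The DNA side was lower at the receptor and at the adaptor. Cgas (chromosome 9, 78430526 to 78443237, minus strand), the cytosolic DNA sensor cGAS, had values of 23.1, 25.7, 25.4 and 20.9 in WT and 15.6, 21.6, 17.3 and 20.5 in KO. WT replicate 4 lay below KO replicate 2, so the groups overlapped. The fold change was -0.33 (standard error 0.112, limma adjusted p = 0.039, means 23.8 ± 2.24 and 18.7 ± 2.80, SD, n = 4). The limma adjusted p rose to 0.0687, 0.103 and 0.0908 when WT replicate 1, 2 or 3 was left out, and to 0.0963 and 0.0985 when KO replicate 1 or 3 was. It was 0.0539 with quantile normalisation and 0.0536 with median centring. Tmem173, which encodes STING, the adaptor that answers the cGAS product, had values of 42.5, 43.4, 39.4 and 52.6 in WT and 26.6, 29.2, 26.6 and 34.3 in KO. Every KO pool lay below every WT pool (log2 fold change -0.59, standard error 0.107, limma adjusted p = 0.00188).

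The largest falls in the class were in Ifi203 and Ifi204, members of the PYHIN family, whose human relative IFI16 binds DNA. Ifi203 (chromosome 1, 173920407 to 173942672, minus strand) had values of 15.2, 18.1, 18.8 and 16.1 in WT and 8.73, 9.09, 9.07 and 6.27 in KO. Ifi204 (chromosome 1, 173747293 to 173766943, minus strand) had values of 24.0, 24.9, 21.4 and 39.5 in WT and 13, 14.0, 12.5 and 18.6 in KO. In both genes the groups did not overlap, and replicate 4 was the highest pool of each group for Ifi204 but the lowest KO pool for Ifi203. Their fold changes were -0.97 (standard error 0.123, limma adjusted p = 0.00022) and -0.85 (standard error 0.185, limma adjusted p = 0.0053). The PYHIN genes are close copies of each other, and Ifi203 shares exon sequence with its neighbour Mndal on the same strand, so reads may be divided between them. Over 8 listed genes of the family, a grouping made after their values were seen, 4 were lower and 0 higher. Of all tested genes, 20.0% were lower and 18.7% higher. The other lower genes were Mndal, from 18.8 ± 2.55 to 9.79 ± 1.43 (limma adjusted p = 0.000505), and Ifi207, from 160 ± 57.7 to 93.5 ± 25.8 (limma adjusted p = 0.0357). Aim2, the inflammasome receptor of the family for DNA, was 67.1 ± 7.2 in WT and 66.4 ± 8.05 in KO (log2 fold change -0.02, limma adjusted p = 0.921).

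Of the RNA helicases, 1 was called lower and the others were not called. Ddx58, which encodes RIG-I, the sensor of RNA with a 5′ triphosphate, had values of 50.6, 48.0, 49.3 and 51.5 in WT and 31.4, 39.3, 33.9 and 36.7 in KO. All KO pools lay below all WT pools (log2 fold change -0.49, standard error 0.0733, 95% interval -0.65 to -0.32, limma adjusted p = 0.000624). Ifih1, the sensor of long double-stranded RNA MDA5, had values of 67.6, 61.0, 57.1 and 66.7 in WT and 62.3, 62.4, 55.8 and 65.8 in KO. These groups overlapped widely (log2 fold change -0.03, 95% interval -0.20 to 0.13, limma adjusted p = 0.751). The intervals of Ddx58 and Ifih1 do not overlap, but the difference between the genes was not tested. Ddx60, a helicase linked to RIG-I signalling, lay between 5.08 and 10.3 in all 8 pools and was not called (limma adjusted p = 0.692). Zbp1, the sensor of left-handed nucleic acids, lay between 8.21 and 10.3 and was not called (limma adjusted p = 0.395).

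Downstream of the sensors, Mavs and Tbk1 leaned in opposite directions without passing the test. Mavs, the mitochondrial adaptor of both helicases, had values of 114, 109, 108 and 138 in WT and 95.5, 94.9, 90.5 and 121 in KO. The replicate 4 pools were the highest of each group, and KO replicate 4 lay above 3 of the 4 WT pools (log2 fold change -0.22, 95% interval -0.46 to 0.01, limma adjusted p = 0.124). Tbk1, the kinase that activates IRF3, had values of 76.9, 79.4, 74.1 and 72.5 in WT and 80.5, 93.6, 96.2 and 79.8 in KO. All KO pools lay above all WT pools by a narrow gap (log2 fold change 0.20, 95% interval 0.04 to 0.36, limma adjusted p = 0.0523). With the replicate number as a block, Mavs was called lower (limma adjusted p = 0.00383) and Tbk1 higher (limma adjusted p = 0.0242). Without KO replicate 4 the limma adjusted p was 0.0196 for Mavs and 0.0259 for Tbk1, and without KO replicate 1 it was 0.0395 for Tbk1. Tbk1 was also called with a minimum value of 8 (limma adjusted p = 0.0481), with quantile normalisation (limma adjusted p = 0.0469) and with median centring (limma adjusted p = 0.0412). With equal column sums Mavs was called too (limma adjusted p = 0.0359). Without both replicate 4 libraries the limma adjusted p was 0.00606 for Mavs and 0.0421 for Tbk1.

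All 3 enzymes that degrade, deplete or edit nucleic acids were lower in KO, beside 20.0% of all tested genes. Trex1 (chromosome 9, 109057933 to 109059734, minus strand) encodes the main cytosolic DNA exonuclease, which keeps self DNA from cGAS. It had values of 22.7, 30.6, 24.0 and 25.7 in WT and 14.4, 13, 13.2 and 16.7 in KO, with no overlap (means 25.8 ± 3.48 and 14.3 ± 1.72, SD, n = 4). The fold change was -0.80 (standard error 0.110, limma adjusted p = 0.000358). Trex1 shares exon sequence on the same strand with Atrip, which was 17.4 in WT and 14.2 in KO (log2 fold change -0.27, limma adjusted p = 0.0367).

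Samhd1 (chromosome 2, 157097533 to 157135265, minus strand), which removes the nucleotides needed to make DNA, had narrow groups. Its values were 408, 414, 409 and 429 in WT and 304, 327, 307 and 330 in KO. The pools of each group lay close together and far from the other group (log2 fold change -0.39, standard error 0.0470, limma adjusted p = 0.000165). Adar, the enzyme that edits adenosine in double-stranded RNA and so hides self RNA from MDA5, had values of 51.9, 50.8, 51.8 and 54.0 in WT and 42.8, 48.0, 42.6 and 43.5 in KO. All KO pools were lower, by a smaller step (log2 fold change -0.23, standard error 0.0567, limma adjusted p = 0.00937). The Adar call was lost when both WT replicate 3 and KO replicate 1 were left out, as were those of Cgas and Parp9.

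**Figure D2:**
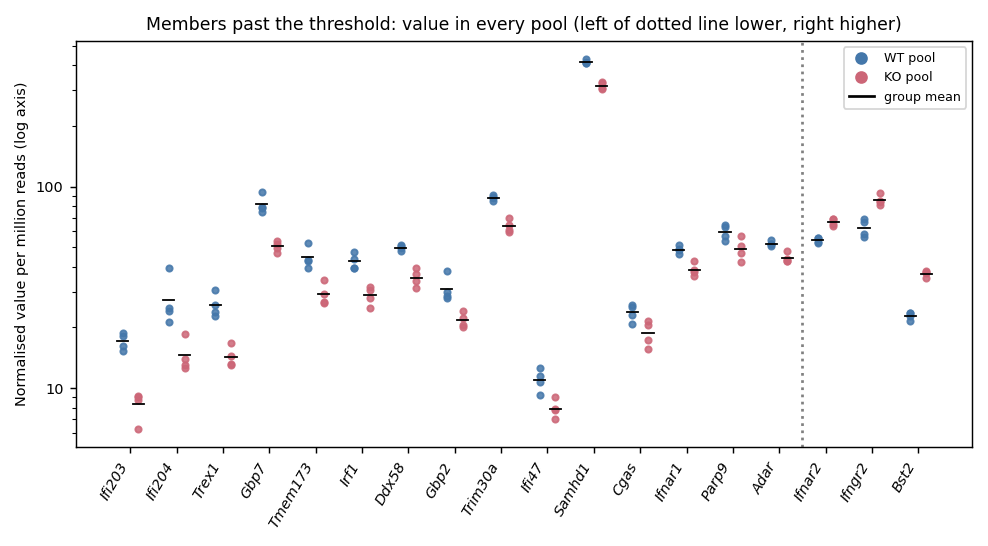
Value in every pool (log axis) of the 18 genes past the threshold, WT in blue and KO in red, with group means as bars. Genes left of the dotted line were called lower and Ifnar2, Ifngr2 and Bst2 on its right higher, and the groups overlap for Cgas and Parp9.

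The chains of each receptor differed in their calls, and the difference between chains was not tested. One chain of the type I receptor was lower in KO and its partner higher, and 1 chain of the type II receptor was higher while its partner was not called. Ifnar1, the signalling chain that binds the kinase TYK2, had values of 51.1, 46.4, 48.2 and 49.2 in WT and 37.5, 36.0, 38.4 and 42.6 in KO. Ifnar2, the chain that binds interferon with high affinity, had values of 55.8, 55.3, 53.3 and 52.5 in WT and 68.8, 68.7, 65.5 and 63.8 in KO. Neither gene had overlapping groups, and the fold changes were -0.33 for Ifnar1 (standard error 0.0648, limma adjusted p = 0.00301) and 0.29 for Ifnar2 (standard error 0.0509, limma adjusted p = 0.00147). Ifngr2, the JAK2-binding chain for interferon gamma, had values of 56.3, 66.5, 58.1 and 68.7 in WT and 85.3, 84.3, 80.9 and 93.3 in KO. All KO pools were above all WT pools (log2 fold change 0.46, standard error 0.0771, limma adjusted p = 0.00124). Ifngr1, the ligand-binding chain, had values of 235, 231, 186 and 276 in WT and 230, 202, 198 and 262 in KO, with wide overlap (log2 fold change -0.05, 95% interval -0.33 to 0.23, limma adjusted p = 0.774).

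3 of these genes lie close together on chromosome 16 and moved in both directions. In order along the plus strand they are Ifnar2 (91372783 to 91405589), Il10rb (91406164 to 91425834), Ifnar1 (91485238 to 91507441) and Ifngr2 (91547072 to 91565623). Il10rb, a receptor chain for interleukin 10 and interferon lambda that is not one of the 50 genes, had values of 68.1, 73.5, 73.7 and 79.7 in WT and 132, 145, 131 and 151 in KO (log2 fold change 0.91, standard error 0.0674, limma adjusted p = 1.01e-05). Ifnar1 was thus the only lower gene among these 4 neighbours, with higher genes on either side. Ifnar2 and Il10rb share exon sequence on the same strand with Gm21970, a predicted gene that reads across them, which was 4.31 in WT and 9.49 in KO (limma adjusted p = 0.00111), so the reads of these genes may be divided among them.

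**Figure D3:**
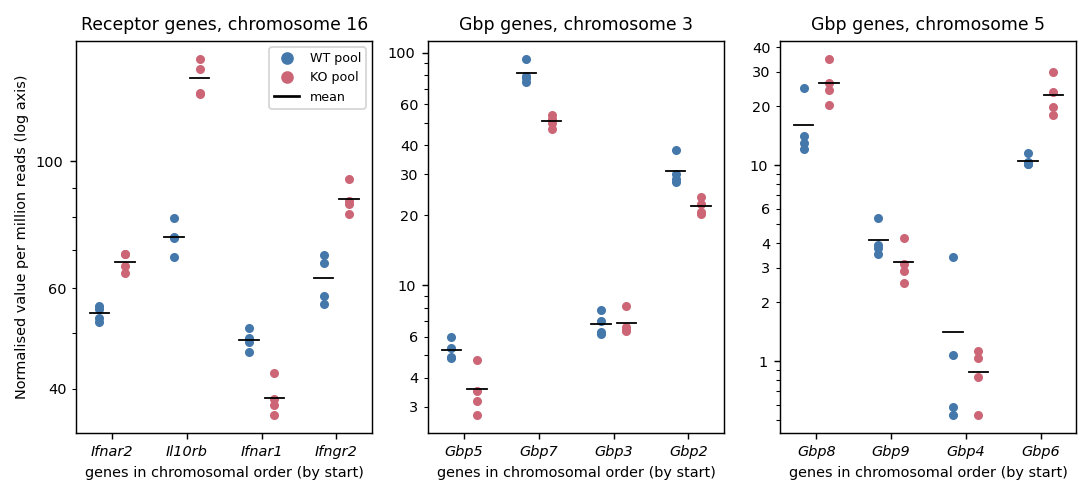
Value in every pool (log axis) of neighbouring genes in 3 chromosomal clusters, in order of their starts, WT in blue and KO in red, with means as bars. On chromosome 16 Ifnar1 alone is lower in KO, and Gbp5, Gbp7 and Gbp2 on chromosome 3 are lower while Gbp8 and Gbp6 on chromosome 5 are higher.

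Among the STAT and IRF factors, Irf1 was lower and no other member was called. The share lower was 20.0% and the share higher 0%, beside 20.0% and 18.7% of all tested genes. All 5 fold changes were below zero, with a median of -0.21. Irf1 (chromosome 11, 53770014 to 53778374, plus strand), a factor that interferon gamma induces, had values of 39.4, 43.7, 39.6 and 47.6 in WT and 30.7, 24.9, 27.9 and 31.8 in KO. The groups did not overlap (means 42.6 ± 3.87 and 28.8 ± 3.12, SD, n = 4, log2 fold change -0.55, standard error 0.0924, limma adjusted p = 0.00124).

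Stat2 and Irf9, which act together at the ISRE, were not called. Stat2 had values of 40.7, 54.1, 37.5 and 63.0 in WT and 36.6, 48.9, 34.3 and 47.8 in KO. Each KO pool was below the WT pool of the same number while the groups overlapped (log2 fold change -0.20, 95% interval -0.59 to 0.19, limma adjusted p = 0.399, and 0.0294 with the replicate block). Irf9 had values of 19.9, 24.4, 21.7 and 27.6 in WT and 20.7, 23.2, 20.7 and 24.0 in KO. All KO pools lay within the wider range of the WT pools (log2 fold change -0.07, 95% interval -0.30 to 0.16, limma adjusted p = 0.645).

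Irf3, the factor that TBK1 activates, had values of 32.9, 40.0, 36.8 and 42.2 in WT and 32.2, 34.9, 28.4 and 35.5 in KO. The groups overlapped through WT replicate 1 (log2 fold change -0.21, 95% interval -0.42 to 0.01, limma adjusted p = 0.117, 0.0348 with the replicate block and 0.0334 with equal column sums). Irf7, which interferon itself induces and which amplifies the response, was low in every pool, at 3.53, 3.56, 5.35 and 4.11 in WT and 2.64, 4.09, 3.28 and 3.24 in KO. The groups overlapped (log2 fold change -0.25, 95% interval -0.58 to 0.08, limma adjusted p = 0.217). Per kilobase of exon, Irf7 had a mean value of 1.10 in WT and Irf3 11.0. Irf9 shares exon sequence with Rnf31 on the same strand, and Irf3 and Irf7 share it with Bcl2l12 and Phrf1 on the other strand.

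Most effectors had low values and did not pass the test. Of 21 effectors, 13 were under 4 in every pool, a split made after their values were seen, and 12 of these were tested. None of the 12 was called in either direction by limma, where 38.7% of all tested genes, at any level of expression, were called. The share among equally low genes was not taken, and log2(value + 1) understates the change of low genes. The median change of the 12 was -0.04 on the log2 scale, with single values from -0.32 for Ifit3 to 0.39 for Mx1. At an unadjusted p under 0.05, 1 of them passed, Mx1. Voom weights, tried after seeing the data, also called Mx1 and no other of them.

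The low group held the Ifit genes, Isg15, Rsad2, Mx1 and Oasl2. Ifit1, which binds RNA that lacks the host cap, had values of 0.730, 1.37, 2.04 and 1.08 in WT and 1.03, 1.34, 0.534 and 0.896 in KO. Ifit2, its relative, had values of 1.79, 1.88, 2.50 and 2.18 in WT and 1.31, 2.80, 1.55 and 1.82 in KO. Ifit3, a further member of the family, had values of 2.11, 1.48, 2.38 and 1.22 in WT and 0.986, 1.72, 1.35 and 0.896 in KO. In all 3 genes the groups overlapped, and the intervals were -0.69 to 0.23 for Ifit1 (limma adjusted p = 0.419), -0.51 to 0.26 for Ifit2 (limma adjusted p = 0.598) and -0.73 to 0.09 for Ifit3 (limma adjusted p = 0.203).

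Isg15, the ubiquitin-like modifier, had values of 2.50, 2.61, 2.38 and 1.48 in WT and 2.50, 2.84, 3.13 and 2.32 in KO. Oasl2, an OAS-like protein, had values of 1.91, 1.92, 3.52 and 1.65 in WT and 1.76, 2.63, 2.41 and 1.26 in KO. Both genes overlapped between the groups, with intervals of -0.14 to 0.53 for Isg15 (limma adjusted p = 0.334) and -0.57 to 0.37 for Oasl2 (limma adjusted p = 0.750). Rsad2, which encodes the antiviral enzyme viperin, had values of 1.28, 0.859, 2.23 and 1.52 in WT and 1.86, 2.43, 2.11 and 2.27 in KO. WT replicate 3 was the one WT pool within the KO range (log2 fold change 0.38, 95% interval -0.01 to 0.77, limma adjusted p = 0.112), and without it Rsad2 was called higher (log2 fold change 0.52, limma adjusted p = 0.0264). Mx1, a dynamin-like GTPase that blocks viruses, had values of 1.05, 0.676, 0.781 and 1.02 in WT and 1.86, 1.44, 1.09 and 1.49 in KO.

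Mx1 had no overlap between its groups (means 0.880 ± 0.180 and 1.47 ± 0.313, SD, n = 4, log2 fold change 0.39, 95% interval 0.06 to 0.72, limma adjusted p = 0.0609). It was called higher without a variance trend (limma adjusted p = 0.0210) and with voom weights on the read numbers (limma adjusted p = 0.0437, log2 fold change 0.75 on that scale). The low members not given by pool, Isg20, Oas3, Rtp4, Xaf1 and Cmpk2, had limma adjusted p of 0.500 or more and values of 0.584 to 3.98. Oas2, which was not tested, lay between 0.381 and 1.65. Per kilobase of exon the 13 low genes had WT means from 0.208 for Oas3 to 2.97 for Isg15. On the same scale the other 8 effectors ran from 2.31 for Herc6 to 25.4 for Bst2 and the sensors ran from 0.971 for Ddx60 to 35.0 for Mavs.

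Within each genotype, 1 pool held the highest value of most low effectors. WT replicate 3 was the highest WT pool for 9 of the 13 and KO replicate 2 the highest KO pool for 8. Their summed value was 21.5, 20.2, 28.6 and 19.4 in WT and 21.5, 27.4, 20.7 and 20.6 in KO, so the 2 highest sums were in pools of different genotype and number. The median deviation of the 12 tested genes from their group mean was 0.22 in WT replicate 3 and 0.24 in KO replicate 2 on the log2 scale, where that of all genes was -0.01 and 0.00. The summed value of 9 endothelial and stromal markers was also highest in WT replicate 3, at 34.3, 30.1, 139 and 36.4 in WT and 56.4, 43.3, 82.8 and 58.1 in KO. Among the WT pools, replicate 3 also had the highest sums of epithelial markers (144, others 65.6 to 90.3) and of neutrophil markers (123, others 80.9 to 104). KO replicate 2 had the lowest KO sum of all 3 lists, and the part of such cells in the effector values was not tested.

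**Figure D4:**
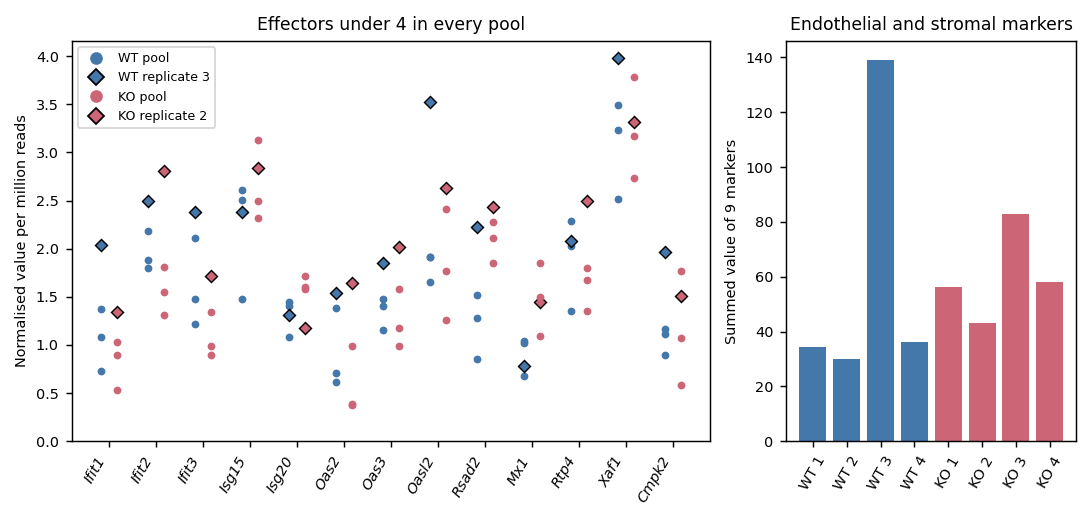
Left, value in every pool (normalised value) of the 13 effectors under 4 in every pool, with WT replicate 3 and KO replicate 2 as diamonds. Right, summed value of 9 endothelial and stromal markers per pool, which is highest in WT replicate 3 at 139.

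Of the 8 effectors that reached 4 in a pool, 2 were lower, 1 was higher and 5 were not called. These counts stand beside 20.0% lower and 18.7% higher of all tested genes. Over the whole class of 20 tested effectors the counts were also 2 lower and 1 higher. Bst2 (chromosome 8, 71534255 to 71537456, minus strand), the membrane protein tetherin that holds budding viruses at the cell surface, had values of 21.5, 22.8, 23.6 and 23.7 in WT and 37.7, 37.3, 38.0 and 35.0 in KO. The pools within each group nearly coincided, and no other of the 20 tested effectors was called higher (log2 fold change 0.67, standard error 0.0593, limma adjusted p = 2.92e-05). Trim30a (chromosome 7, 104409025 to 104465193, minus strand), a TRIM protein that dampens inflammatory signalling, had values of 88.9, 85.2, 88.0 and 90.6 in WT and 59.6, 64.6, 60.6 and 69.8 in KO. All KO pools were lower (log2 fold change -0.47, standard error 0.0600, limma adjusted p = 0.000241), though the Trim30 genes are close copies and may share reads.

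Parp9, which acts with Dtx3l as an ADP-ribosylation and ubiquitin complex, had values of 62.9, 57.0, 53.5 and 64.8 in WT and 46.9, 50.6, 42.4 and 56.8 in KO. KO replicate 4 lay above WT replicate 3, and the call was near the threshold (log2 fold change -0.28, standard error 0.0958, limma adjusted p = 0.0457). The limma adjusted p rose to 0.111, 0.0705 and 0.0993 without WT replicates 1, 2 and 4, and to 0.106, 0.0700 and 0.119 without KO replicates 1, 2 and 3. It was 0.0701 with median centring and 0.0633 without a variance trend. Dtx3l, which shares exon sequence with Parp9 on the other strand, was 64.6 ± 7.12 in WT and 61.2 ± 8.91 in KO (limma adjusted p = 0.603). The others of these 8 were Oas1a, Herc6, Parp14 and Ifi35, with fold changes from -0.23 to -0.04. Ifi35, a partner of the factor Nmi, had the largest of these (limma adjusted p = 0.147, and 0.0293 with the replicate block).

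The GTPases that interferon gamma induces, which attack the vacuoles of intracellular microbes, were lower for 3 of 7 genes (42.9%) and higher for 0. Of all tested genes, 20.0% were lower and 18.7% higher. The median over the 7 was -0.21 on the log2 scale. Gbp7 (chromosome 3, 142530342 to 142550149, plus strand) had values of 77.9, 79.6, 74.6 and 94.4 in WT and 49.7, 52.1, 47.1 and 53.9 in KO. Gbp2 (chromosome 3, 142620602 to 142638008, plus strand) had values of 30.0, 28.6, 38.0 and 27.8 in WT and 20.6, 20.2, 24.1 and 22.4 in KO. Neither gene had overlapping groups (log2 fold change -0.67, standard error 0.0794, limma adjusted p = 0.000146 for Gbp7, and -0.49, standard error 0.104, limma adjusted p = 0.00474 for Gbp2). Gbp3, which lies with them, was at 6.15 to 7.79 in WT and 6.36 to 8.14 in KO and was not called (log2 fold change 0.01, limma adjusted p = 0.944).

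Of the IRG family, Ifi47 was lower and its relatives were not called. Ifi47 (chromosome 11, 49076587 to 49096974, plus strand) had values of 11.5, 9.26, 10.7 and 12.5 in WT and 9.01, 7.83, 6.99 and 7.79 in KO. The highest KO pool lay just under the lowest WT pool (log2 fold change -0.43, standard error 0.109, limma adjusted p = 0.0118). Igtp had values of 13.9, 15.3, 16.2 and 14.2 in WT and 12.1, 13.5, 11.7 and 13.7 in KO, without overlap (log2 fold change -0.21, limma adjusted p = 0.0699), and it was called lower with equal column sums (limma adjusted p = 0.0192) and without both replicate 4 libraries (limma adjusted p = 0.0482). Irgm2, which shares exon sequence with Igtp on the same strand, was 11.6 ± 1.7 and 9.88 ± 1.16 (limma adjusted p = 0.202). Irgm1, the regulatory member that protects the cell's own membranes, was 26.0 ± 1.79 and 26.4 ± 1.88 (log2 fold change 0.02, 95% interval -0.15 to 0.19, limma adjusted p = 0.880).

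Of the Gbp genes outside the 50, Gbp5 lies with Gbp2, Gbp3 and Gbp7 on chromosome 3, and 4 others lie in a second cluster on chromosome 5, where the called genes were higher. On chromosome 3, 3 of 4 listed Gbp genes were lower and 0 higher, Gbp5 being the third of them (limma adjusted p = 0.0233). On chromosome 5, 0 of 4 were lower and 2 were higher, a grouping by position made after the values were seen. Gbp9 and Gbp4 there were not called and had log2 fold changes below zero, -0.30 and -0.22 (limma adjusted p = 0.163 and 0.627). Gbp6 had values of 10.2, 10.1, 11.6 and 10.3 in WT and 19.7, 30.0, 23.6 and 18.0 in KO, with no overlap (log2 fold change 1.02, limma adjusted p = 0.000355). Gbp8 had values of 13, 14, 12 and 24.7 in WT and 24.2, 35.0, 26.1 and 20.2 in KO, where WT replicate 4 lay within the KO range (log2 fold change 0.72, limma adjusted p = 0.0294). Gbp8 shares exon sequence with Gbp4 and Gbp9 on the same strand, and the Gbp genes are close copies, so reads may be divided among them. The difference between the clusters was not tested. Over the wider GTPase list 2 of 11 were lower and 2 higher (18.2% each), near the 20.0% and 18.7% of all tested genes. Leaving out single libraries gave 0 to 4 lower and 1 to 2 higher, with 0 lower without KO replicate 1, KO replicate 3 or WT replicate 4.

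Related genes outside the 50 were counted in wider lists by the same roles. Of 153 tested, 42 were lower (27.5%) and 30 higher (19.6%), beside 20.0% and 18.7% of all genes. In the sensing list 7 of 36 were lower (19.4%) and 11 higher (30.6%). That list thus did not lean the way of the 10 sensors above. Its higher count was 7 without KO replicate 3 and 5 with equal column sums. Its lower genes included Myd88, the adaptor of most Toll-like receptors, from 126 ± 2.41 to 84.1 ± 4.06 (limma adjusted p = 2.52e-05), and Nlrx1, a mitochondrial regulator of MAVS (limma adjusted p = 0.000925). Its higher genes included Tlr7, the endosomal receptor for single-stranded RNA, at 197 ± 5.00 in WT and 295 ± 31.3 in KO (log2 fold change 0.57, limma adjusted p = 0.000219). Nlrc3, a negative regulator of STING, was 0.806 ± 0.339 in WT and 7.25 ± 1.49 in KO (log2 fold change 2.19, limma adjusted p = 1.76e-05). Lrrc8a, a channel subunit that can carry the cGAS product, was also higher (log2 fold change 0.70, limma adjusted p = 0.000202).

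In the list of nucleic acid removal, 5 of 18 were lower (27.8%) and 3 higher (16.7%), beside 20.0% and 18.7% of all genes. The paired exonucleases of the lysosome went opposite ways. Pld4 had values of 209, 221, 204 and 258 in WT and 68.1, 49.8, 53.2 and 93.3 in KO (log2 fold change -1.78, limma adjusted p = 5.18e-05). Pld3 was higher in KO (log2 fold change 0.69, limma adjusted p = 9.71e-06), and neither gene had overlapping groups.

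In the signalling list 8 of 24 were lower and 6 higher, with 5 lower when KO replicate 1 or KO replicate 2 was left out. The lower genes included Nmi, which binds STAT proteins (log2 fold change -0.50, limma adjusted p = 0.00124), Ptpn6, the phosphatase SHP-1 (log2 fold change -0.45, limma adjusted p = 0.00105), and Irf8, a macrophage lineage factor (log2 fold change -0.21, limma adjusted p = 0.0158). Jak1 and Irf5 were not called, with limma adjusted p of 0.458 and 0.764, and Tyk2 was not called either (limma adjusted p = 0.117, and 0.0151 with the replicate block). In the effector list 20 of 64 were lower (31%) and 8 higher (12.5%), beside the same shares of all genes. The higher count was 5 when KO replicate 2 was left out. Eif2ak2, the RNA-activated kinase PKR, was 52.5, 50.6, 51.7 and 42.8 in WT and 36.3, 44.5, 40.1 and 34.2 in KO, with WT replicate 4 below KO replicate 2 (log2 fold change -0.34, limma adjusted p = 0.0175). Fcgr1, the high-affinity receptor for IgG, and Slfn9 were among the lower genes (log2 fold changes -0.97 and -1.12, limma adjusted p = 0.000299 and 0.000422). Nampt and Lgals3bp were among the higher ones (log2 fold changes 0.79 and 0.72, limma adjusted p = 5.88e-05 and 0.000101).

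**Figure D5:**
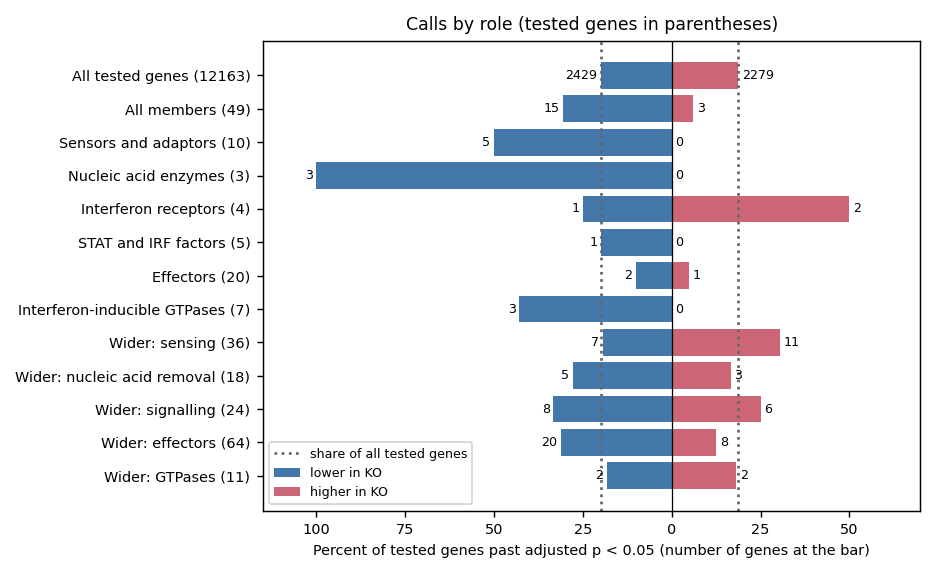
Percent of tested genes called lower (left, blue) and higher (right, red) by role, with the number of genes at each bar and the shares over all tested genes as dotted lines. The sensors, nucleic acid enzymes, STAT and IRF factors and GTPases have bars on the lower side only, and the wider sensing list has 11 higher against 7 lower.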

How the data were processed

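Per the submitters' processing notes, reads were handled with CASAVA 1.8.2, cutadapt 1.7.1, RSEM 1.3.1 and limma on GRCm38. Per the labels' protocols, the library kit keeps strand. Which annotation release and which strand setting were used for counting is not given in the sources used here. Each gene has 1 deposited normalised signal value in each library. These were made by the authors from whole reads with 0.5 added and then scaled to the library, as their spacing shows at a tolerance of 0.01. A library factor beyond the column sum had a mean of 1.03 ± 0.00728 over the WT libraries and 0.969 ± 0.00642 over those of KO (SD, n = 4).

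Values were tested as log2(value + 1) with limma 3.58.1 in R 4.3.3 (variance trend, two-sided, Benjamini-Hochberg over 12163 genes, adjusted p under 0.05, 4 or more libraries at a value of 1). The fit was run on simulated libraries drawn without any effect shared by replicate number, so that run does not test the fit under such an effect. Groups and replicate numbers came from the sample titles. Same-numbered libraries deviated together (correlations 0.363, 0.286, 0.394 and 0.431, other pairs -0.374 to 0.0917), so the number was used as a block in a further fit. The pairing rests on the data alone, and the labels give no meaning to the numbers. The p-values test the difference between KO and WT against the spread between pools, moderated over genes. That spread is between pools of mice and not between single mice.

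Every gene of the list could be named. Called genes and 19 genes set by their role are given by pool where listed. From each wider list up to 6 called genes with the lowest adjusted p could be named, with Eif2ak2, Irf8, Irf5, Jak1 and Tyk2. Aim2, Ifi207, Gm21970, Atrip and the other overlapping genes lie outside this rule and were picked with their values known. The genes, their classes and the wider lists were chosen with earlier results of these data known. Other marker lists, for monocytes, conventional dendritic cells, neutrophils and epithelial cells, had 1, 1, 1 and 0 genes called higher and 3, 0, 3 and 1 called lower. The plasmacytoid list had 1 higher and 1 lower. Gene positions and exon lengths are from GENCODE M21 (GRCm38). Promoters are from RefSeq (GRCm38.p6). Some genes that this rule covers are not reported here.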

Additional observations from a re-analysis of the deposited data

Results flagged for a closer look

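Within a group of 4 pools, a pool was marked when its gap to the nearest other pool, divided by the range of the group, exceeded Dixon's 95% critical value. Of 100 such groups, 4 were marked, and chance marks about 1 group in 20. Mavs was high in KO replicate 4, at 121, where the others of its group lay at 90.5 to 95.5. Ifi203 was low in the same pool, at 6.27 against 8.73 to 9.09. Oasl2 was high in WT replicate 3, at 3.52 against 1.65 to 1.92. Gbp3 was high in KO replicate 1, at 8.14 against 6.36 to 6.57.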

How the results depend on the processing

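With the replicate number as a block, 19 of the interferon and sensing genes were lower and 4 higher, against 15 and 3 without it. It kept all 18 calls and added Ifi35, Irf3, Mavs and Stat2 as lower and Tbk1 as higher. Over all genes it called 2952 lower and 2730 higher. Across the alternatives, 853 of 917 fold changes of single genes kept their direction and their side of the threshold. Of the 18 called genes, 0 changed direction, and Cgas and Parp9 lost the call under single alternatives. Adar also lost it without WT replicate 3 and KO replicate 1, where 15 calls remained and 12 genes were lower. The cause of these changes was not tested.

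By class, 1 sensor was called higher, against 0, with the block, a minimum value of 8, quantile normalisation, median centring and without both replicate 4 libraries. Of the STAT and IRF factors 3 were lower with the block and 2 with equal column sums, against 1. Of the effectors 2 were higher without a variance trend and with voom weights, against 1, and 1 was lower with median centring and without a variance trend, against 2. In the wider lists, 5 sensing genes were higher with equal column sums, against 11, and 5 effectors with a minimum of 8, against 8. Of the wider GTPases 5 were lower with the block and with equal column sums, 4 without both replicate 4 libraries, and 1 with a minimum of 8, with median centring and without a variance trend, against 2. Leaving out single libraries gave 0 to 1 sensors higher, 1 to 2 effectors higher and 1 to 2 lower. In the wider lists it gave 7 to 10 sensing genes higher, 5 to 7 signalling genes lower, 5 to 9 effectors higher, and 1 to 2 GTPases higher and 0 to 4 lower. The low value of 7 in sensing came without KO replicate 3, that of 5 in signalling without KO replicate 1 or 2, and that of 5 in effectors without KO replicate 2.

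The fold changes of 12 genes, all of them not called, changed sign. Oas3 reached 0.026 without both replicate 4 libraries, Xaf1 0.0097 with median centring and 0.0020 with voom weights, Gbp3 -0.068 with equal column sums, and Irgm1 -0.070 with equal column sums and -0.069 without both replicate 4 libraries. Leaving out single libraries gave -0.080 to 0.012 for Ifih1, -0.30 to 0.039 for Ddx60, -0.15 to 0.035 for Ifngr1, -0.14 to 0.012 for Irf9, -0.095 to 0.013 for Oas1a and -0.14 to 0.063 for Oas3. It gave -0.20 to 0.072 for Oasl2, -0.16 to 0.029 for Rtp4, -0.11 to 0.061 for Xaf1, -0.16 to 0.11 for Cmpk2, -0.062 to 0.071 for Gbp3 and -0.031 to 0.060 for Irgm1.

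Genes with values near 1 rest on 19.7 to 30.0 reads per pool, and counting error was not separated from the spread between pools in the low effectors.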

Other observations

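The 50 genes differed in which pool held their highest value. WT replicate 4 was the highest of all 8 pools for 19 genes and WT replicate 3 for 10, and within KO replicate 4 was the highest pool for 21 genes and replicate 2 for 17. The summed value of the 50 genes was 2019, 2058, 1955 and 2227 in WT and 1727, 1820, 1682 and 1928 in KO. Every KO sum lay below every WT sum, and replicate 4 was the highest of each group. Abundant genes weigh most in these sums. Samhd1 alone was 408 to 429 in WT and 304 to 330 in KO, a wider gap than that between the sums. The separation therefore does not describe the 50 genes as a whole.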
